A study of Mus musculus with 54 samples.

Results

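Xcr1, Batf3, Id2, Plbd1, Ccl22, Ckb and Cst3 were followed as a set of 7 genes of conventional dendritic cells in mouse bone marrow progenitors. The members were the rows of the deposited count table whose name, split on semicolons, holds one of these symbols; each matched 1 row with no second symbol, so 7 of 27297 gene rows were used. Single cells had been profiled with MARS-seq, a plate-based method that counts unique molecular identifiers (UMIs) from the 3' ends of mRNA. Cells were amplified in 54 pools of wells, and a cell was kept with at least 500 UMIs, which left 8399 cells.

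Conventional dendritic cells take up antigen and present it to T cells on major histocompatibility complex (MHC) class II, whose invariant chain is Cd74. They arise in the bone marrow from Flt3-expressing progenitors, and type 1 conventional dendritic cells (cDC1), which cross-present antigen to CD8 T cells, depend on the transcription factors Irf8, Batf3 and Id2. Xcr1 is the chemokine receptor that marks cDC1. Batf3 is a basic leucine zipper factor that partners with Irf8, and Id2 binds E proteins and blocks their activity at DNA. Ccl22 is a chemokine for Ccr4-bearing T cells, made by mature dendritic cells. Cst3 encodes the secreted cysteine protease inhibitor cystatin C, Ckb the brain-type creatine kinase, and Plbd1 a phospholipase B-like protein.

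The groups were those described in the authors' table of wells, and all cells were Lin- cKit+ Sca1- on a C57BL/6 background. An Irf8-GFP reporter strain gave the GFP+ MHCII+ gate of CD34+ FcgR(low) common myeloid progenitors (6 pools, 1116 cells, median 2791 UMIs per cell). Wild-type mice gave the Flt3+ Csf1r+ gate of the same fraction (6 pools, 1132 cells, median 2373.5 UMIs), the CD41+ gate of that fraction (2 pools, 336 cells, median 1843.5) and unsorted myeloid progenitors (16 pools, 2732 cells, median 3101). Cebpa knockout cells came from Cebpa(flox/flox)Mx1-Cre mice (12 pools, 1384 cells, median 1834.5) and were set against Cebpa control cells (6 pools, 890 cells, median 2566.5). Cebpe-/- cells (4 pools, 559 cells, median 3238) were set against Cebpe+/+ controls (2 pools, 250 cells, median 3696). Mx1-Cre is induced by poly(I:C) in interferon-responsive cells, not only in progenitors; a poly(I:C) label with no dose was on 8 of the 12 knockout and 4 of the 6 control pools, and for 2 of these control pools the strain label also names Mx1-Cre. The other 4 knockout and 2 control pools carried labels of other groups, with no poly(I:C). A dose, 300 µg injected 3 times, 3 weeks before harvest, is labelled for 6 pools that the table of wells puts in the Flt3+ Csf1r+ gate and the Cebpe arms. Of the Cebpe arms it is labelled for all control pools and for part of the knockout pools. By the labels mice were 6 to 8 weeks old, or 14 weeks for 12 of the samples. By the table of wells the samples of 14 weeks are all pools of the Cebpe arms and part of the Cebpa knockout, Cebpa control and Flt3+ Csf1r+ pools.

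The GEO label and the table of wells named the same group for 36 pools and different groups for 18, including all pools of the Cebpe arms, and 2 of the 6 pools of the Irf8-GFP+ MHCII+ gate carried a Flt3+ Csf1r+ label. Under the description, Cebpa had 0 to 2 UMIs in each of the 12 knockout pools and 35 to 64 in each of the 6 Cebpa control pools, and Cebpe had 0 UMIs in each of the 4 Cebpe knockout pools and 21 to 40 in the Cebpe control pools. The labels do not say which exons were deleted. Each group had 1 mouse identifier, which need not be 1 animal, so p-values over pools measure only the spread between these pools, which may be technical. Kept cells of a pool held 121254 to 852363 UMIs. Wells that had received no cell held up to 233 UMIs; in the 12 such wells of the Irf8-GFP+ MHCII+ gate, with 730 UMIs in all, Cst3 had 8 UMIs, Cd74 had 7 and the other 6 members had 0.

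The promoters of 3 members are shown because they are the ones that hold both of the motifs marked below. The windows run from 250 bases before to 50 bases after the annotated start in RefSeq, build GRCm38.p6, which is not the mm9 build of the deposited counts; all 7 members matched the table. Capitals mark the short ETS core GGAAGT and the E box CACGTG, on either strand. The windows are chr9:123861980-123862279 on the minus strand for Xcr1, chr1:191098164-191098463 on the plus strand for Batf3 and chr6:136661844-136662143 on the minus strand for Plbd1.
Xcr1: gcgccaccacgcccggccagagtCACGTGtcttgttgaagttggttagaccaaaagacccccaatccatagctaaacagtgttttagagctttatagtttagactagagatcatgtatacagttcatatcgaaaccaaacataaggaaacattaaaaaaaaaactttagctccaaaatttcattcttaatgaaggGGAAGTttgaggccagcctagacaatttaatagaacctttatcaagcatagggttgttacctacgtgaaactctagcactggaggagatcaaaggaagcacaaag
Batf3: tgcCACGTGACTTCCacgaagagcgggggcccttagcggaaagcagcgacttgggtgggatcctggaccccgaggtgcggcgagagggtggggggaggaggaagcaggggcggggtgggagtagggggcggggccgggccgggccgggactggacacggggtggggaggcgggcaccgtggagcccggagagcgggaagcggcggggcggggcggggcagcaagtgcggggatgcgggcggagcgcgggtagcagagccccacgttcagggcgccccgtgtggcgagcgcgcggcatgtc
Plbd1: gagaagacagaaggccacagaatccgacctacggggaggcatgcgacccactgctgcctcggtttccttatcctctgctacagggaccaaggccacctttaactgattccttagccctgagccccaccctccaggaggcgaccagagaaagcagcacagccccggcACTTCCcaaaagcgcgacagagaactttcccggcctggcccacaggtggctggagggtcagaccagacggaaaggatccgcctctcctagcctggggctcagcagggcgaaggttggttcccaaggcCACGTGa
The short ETS core lay in these 3 promoters and in that of Ccl22, against 23.8% of the 32851 promoters in the table, and the CACGTG box in these 3, against 7.15% of all promoters. In the Batf3 window the CACGTG box started 247 bases and the ETS core 241 bases before the start site, so that they adjoin without overlap, and in Plbd1 the box lay 43 bases after the start. The ETS-IRF composite (GGAA and GAAA 2 bases apart), the interferon response core (GAAA and GAAA 2 bases apart), the PU.1-type core GAGGAAGT, which contains the short ETS core, and the AP-1 core TGANTCA had no match on either strand in any of the 7 windows, against 2.72%, 3.44%, 3.2% and 7.81% of all promoters. Also scanned were the TATA box, found in Xcr1 and Ckb against 13.6% of all promoters, and the CCAAT box, found in Xcr1, Id2 and Ckb against 37.4%. All of these are matches of letters in 300-base windows and no measure of binding.

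All 7 members were highest in the Irf8-GFP+ MHCII+ gate, and in this gate the lowest pool of every member stood above the highest of the 16 unsorted pools. Xcr1 and Ccl22 were close to absent elsewhere, Batf3, Ckb, Id2 and Plbd1 were present at low levels in other progenitors, and Cst3 was abundant in every group. The comparison asked how progenitors gated on Irf8 reporter and MHC class II protein differ from the whole Lin- cKit+ Sca1- compartment. Since pools sum many cells, fewer cells of a type and less RNA per cell cannot be told apart in the group levels. Levels are in CPM, a gene's count per 1000000 UMIs of the kept cells.

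Xcr1, the cDC1 receptor, had 75.9, 108, 18.2, 27.0, 126 and 101 CPM in the 6 pools of the Irf8-GFP+ MHCII+ gate, against 1 UMI in all 16 unsorted pools. The gate held 286 Xcr1 UMIs, in 142 of 1116 cells, a ratio of 790 to the unsorted level with a 95% counting interval of 141 to 31328. Pools 3 and 4, which shared a plate, had the lowest Xcr1. The Flt3+ Csf1r+ gate had 1 Xcr1 UMI and the CD41+ gate and all 4 knockout and control groups had 0. In the 336 cells of the CD41+ gate a count of 0 allows a share of up to 0.893% of cells with an Xcr1 UMI.

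Ccl22, the mature dendritic cell chemokine, had 66.8, 60.5, 126, 201, 19.2 and 27.7 CPM in the gate and 0 UMIs in the 9878933 UMIs of the unsorted cells. It was at least 256-fold higher in the gate, with the unsorted group set at 3 counts in all. Its order over the pools was not that of Xcr1: pools 3 and 4 were the highest. The Flt3+ Csf1r+ gate had 1 Ccl22 UMI and the other groups had 0.

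Batf3, the Irf8 partner, had 102, 95.5, 168, 104, 110 and 67.6 CPM in the gate, against 0 to 5.87 CPM in the unsorted pools. Outside the gate Batf3 never passed 8.07 CPM in a pool, which was 3 UMIs in a Flt3+ Csf1r+ pool, and group levels were 1.73 CPM in the Flt3+ Csf1r+ gate, 0 in the CD41+ gate, 0.949 in Cebpa knockout, 2.09 in Cebpa control, 1.86 in Cebpe knockout and 0.847 in Cebpe control. The pool ranges of these groups overlap, so no order among them holds beyond the spread.

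Id2, the E protein inhibitor, had 711, 872, 895, 783, 812 and 793 CPM in the 6 pools of the gate, against 9.98 to 46.4 CPM (median 22.9) in the unsorted pools. At least 1 Id2 UMI was seen in 54.8% of gate cells and in 4.17% of unsorted cells. The Cebpe knockout came next, with 46.5 to 87.9 CPM over its pools. The Flt3+ Csf1r+ gate had 6.75 to 26.6 CPM, the CD41+ gate 2.81 and 8.00, the Cebpa knockout 0 to 49.5, the Cebpa control 6.76 to 37.1 and the Cebpe control 15.1 and 29.1.

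Plbd1 had 662, 711, 666, 789, 852 and 657 CPM in the gate, against 0 to 22.3 CPM in the unsorted pools. Among the other groups its summed level was 3.12 CPM in the Flt3+ Csf1r+ gate, 0 in the CD41+ gate, 1.66 in Cebpa knockout, 17.4 in Cebpa control, 3.26 in Cebpe knockout and 11.9 in Cebpe control. Plbd1 and Id2 thus differ in which group follows the gate: the Cebpe knockout for Id2, and for Plbd1 the Cebpa control, whose pools overlap those of unsorted cells.

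Ckb, the creatine kinase, had 88.1, 132, 200.5, 162, 131 and 121 CPM in the gate and 0 to 6.06 CPM in the unsorted pools. A Cebpa control pool reached 33.0 CPM, from 10 UMIs, and the next highest pool outside the gate was at 21.6 CPM. Cst3, the protease inhibitor, had 5327, 5706, 7349, 6987, 6353 and 5356 CPM in the gate. The Flt3+ Csf1r+ gate was next with 1633 to 2299 CPM, followed by the Cebpe knockout with 1523 to 1692, whose ranges overlap. Unsorted pools had 650 to 1054 CPM of Cst3, the CD41+ pools 723 and 847 and the Cebpa knockout pools 313 to 540, the lowest range of the 8 groups.

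**Figure D1:**
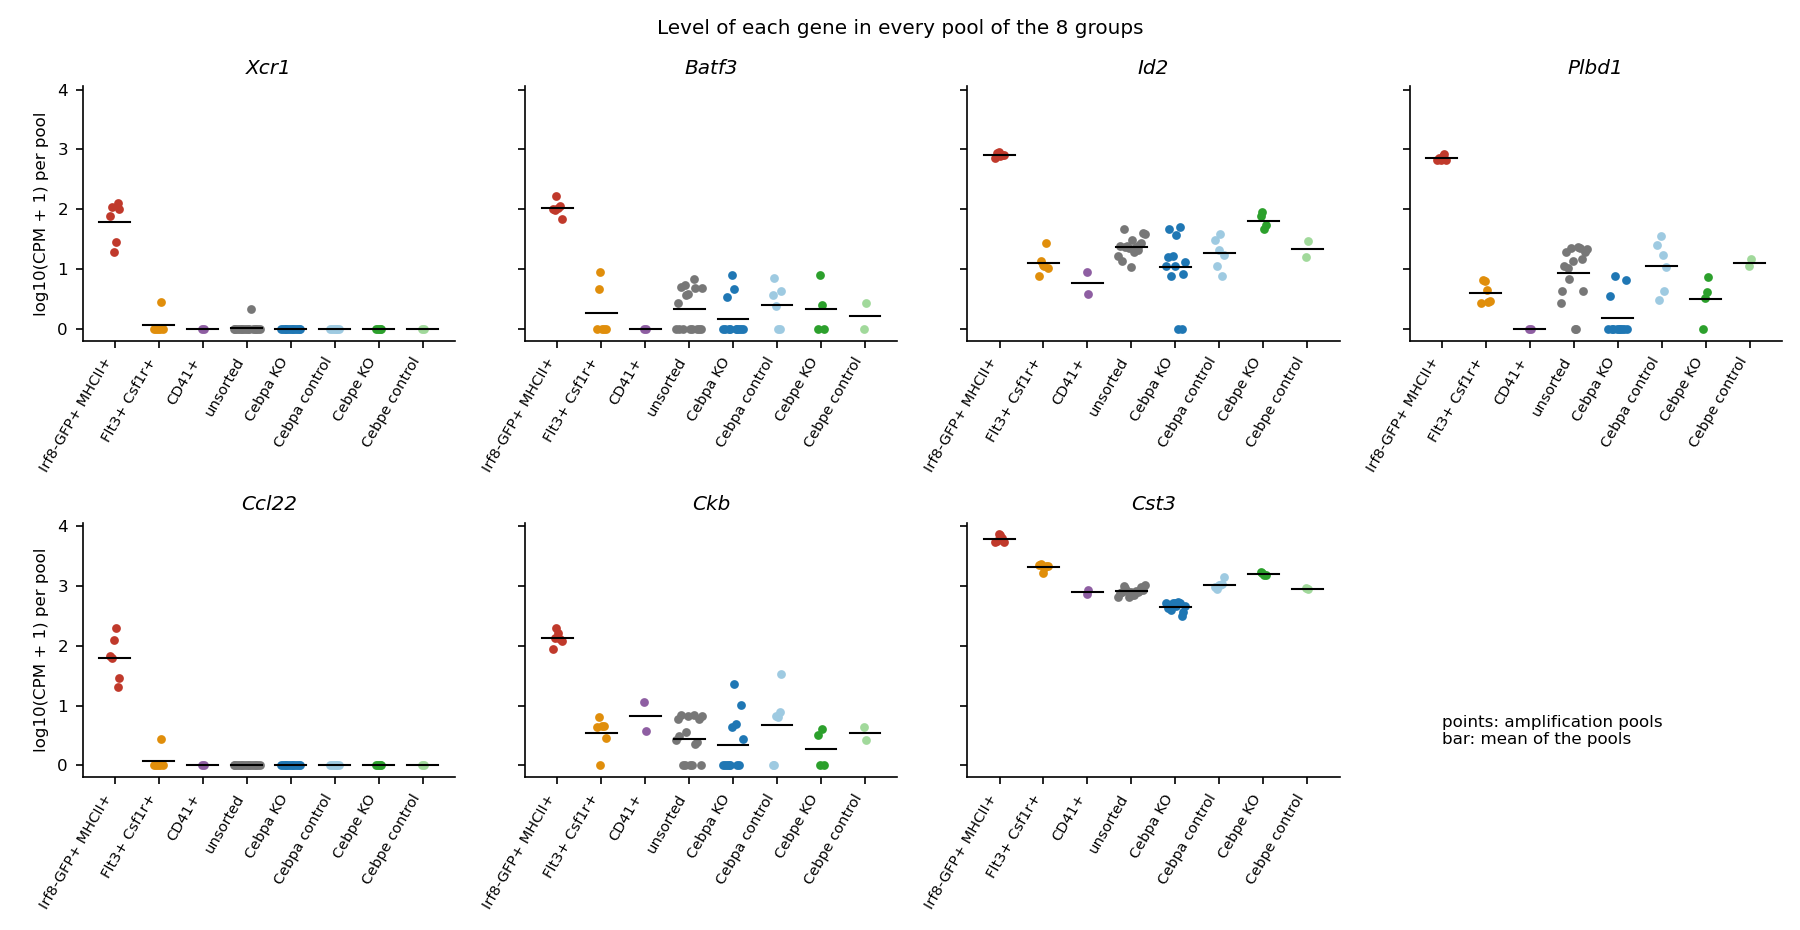
Level of each of the 7 genes in every amplification pool (log10 of CPM + 1 on the y axis) in the 8 groups on the x axis; points are pools and bars are the means of the plotted values. The 6 pools of the Irf8-GFP+ MHCII+ gate lie above all other pools for every gene, and Cst3 alone is far from 0 in all 8 groups.

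In edgeR's quasi-likelihood test on pool sums with Benjamini-Hochberg adjustment, 7 of 7 members were higher in the Irf8-GFP+ MHCII+ gate than in unsorted progenitors, where 28.3% of the 8720 tested genes were called higher and 27.8% lower. The log2 fold changes were 7.90 (SE 0.42) for Xcr1, 5.89 (SE 0.21) for Plbd1, 5.596 (SE 0.33) for Batf3, 5.56 (SE 0.27) for Ckb, 5.06 (SE 0.15) for Id2 and 2.91 (SE 0.099) for Cst3. The adjusted p was 2.3e-10 or lower for each member in this test; the fitted value of Ccl22 depends on a prior count and is replaced by the bound above. The median over the 7 was 5.596 on the log2 scale, against 0.0026 over all tested genes. The count filter was applied over the sorted gates and the unsorted pools together. Xcr1, Ccl22, Batf3 and Ckb could pass it only through this gate, so being tested already required a high level there. The gate came from the reporter strain and shares neither a sequencing batch nor a mouse identifier with the unsorted pools. Gate, strain, batch and mouse therefore cannot be told apart.

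The gate was checked on its own markers. Cd74 was at 3951 to 6972 CPM in the gate pools and at a summed level of 72.2 CPM in unsorted cells. Irf8 mRNA had 671 to 824 CPM in the Irf8-GFP+ MHCII+ gate, against 1016 to 1212 CPM in the Flt3+ Csf1r+ gate, so Irf8 was lower in the gate sorted on its reporter; it was 215 CPM in unsorted cells. Of 12 other cDC1 genes 7 were tested and all 7 were higher than in unsorted cells, with Tlr11 at a log2 fold change of 6.84 and the adhesion molecule Cadm1 at 5.16 as the largest, and Wdfy4, needed for cross-presentation, at 2.69 and Cxx1a at 1.96 as the smallest. Of 9 mature dendritic genes 6 were tested and higher, led by the lymph node homing receptor Ccr7 (7.77) and the actin bundler Fscn1 (7.41). In both lists a gene with few counts elsewhere could pass the count filter only through this gate. Of 10 cDC2 genes 6 were tested, 4 higher and 1, Mgl2, lower at -1.11. Of 10 plasmacytoid genes 6 were tested and 4 were higher, by at most 1.67 (Ly6d).

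Genes of other cell types moved as well. Of the monocyte and macrophage list 9 of 10 tested genes were higher in the gate and 1, Ly6c2, was lower at -3.47; the largest was the complement gene C1qa at 6.11, and the summed list had 800 to 1183 CPM in gate pools and 401 to 1777 CPM in unsorted pools. Of 12 tested erythroid genes 11 were lower, and the list summed to 142 to 375 CPM in gate pools against 7968 to 12107 CPM in unsorted pools, with Ermap and Aqp1 among the genes at 0 in the gate. The part of erythroid cells in the fold changes was not tested in the pool sums, but the members were compared within cell sets below.

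The gate was also compared with the Flt3+ Csf1r+ gate, the progenitors in which dendritic potential is usually sought. All 7 members were again higher in the Irf8-GFP+ MHCII+ gate (edgeR, adjusted p 3.9e-06 or lower), where 19.7% of tested genes were called higher and 17.7% lower. Plbd1 differed most, by 7.67 (SE 0.39) on the log2 scale, followed by Ccl22 at 7.13 (SE 0.88), Xcr1 at 7.02 (SE 0.61), Id2 at 5.83 (SE 0.24), Batf3 at 5.69 (SE 0.51) and Ckb at 5.30 (SE 0.40). Cst3 differed by 1.48 (SE 0.13). The count filter was that of the comparison with unsorted cells, with the same limit for Xcr1, Ccl22, Batf3 and Ckb. Within the sequencing batch that held both gates, with 6 pools against 2, 7 of 7 were again higher: Plbd1 by 8.37 (SE 0.34), Id2 by 5.36 (SE 0.27) and Cst3 by 1.41 (SE 0.16). The share of all genes called in this batch is not set beside that count. The 2 Flt3+ Csf1r+ pools of this batch carry the GEO label of the Irf8-GFP+ MHCII+ gate, and 2 of the 6 Irf8-GFP+ MHCII+ pools carry the Flt3+ Csf1r+ label. These gates also differ in strain and mouse identifier, which cannot be told apart from the gate. Grouping by the GEO label exchanges 2 pools each way between these gates. It also brings 2 pools described as Cebpa knockout into the Flt3+ Csf1r+ gate and takes out 2 pools labelled Cebpa knockout. With pools grouped in this way none of the 7 passes and Xcr1 is at -0.036.

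The Flt3+ Csf1r+ gate itself carried little of the set beyond Cst3. Against unsorted progenitors, 1 of 7 members was higher and 2 were lower (edgeR; 25.8% of genes were called higher and 27.5% lower). Cst3 was higher by 1.43 on the log2 scale (SE 0.10, adjusted p 2.1e-14). Id2 was lower at -0.77 (SE 0.28, adjusted p 0.020) and Plbd1 at -1.78 (SE 0.58, adjusted p 0.010), but with cells of at least 1000 UMIs these were -0.38 and -1.55 with adjusted p of 0.29 and 0.060 by edgeR. Batf3, Ckb, Xcr1 and Ccl22 had log2 fold changes of -0.10, 0.26, 0.87 and 1.41 that did not pass, the last 2 from 1 UMI each. The other dendritic genes followed no single direction: Flt3 itself was higher by 4.12, Lsp1 by 2.88 and Irf8 by 2.48, while Cd74 was lower at -1.33 and H2-Aa at -1.14. Erythroid genes summed to 85.3 to 143 CPM in the Flt3+ Csf1r+ pools against 7968 to 12107 CPM in unsorted pools, and their part in these differences was not tested. The 2 groups share no sequencing batch, so gate and batch cannot be told apart.

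CD41 is a marker of megakaryocyte-primed progenitors. In the CD41+ gate Id2 (4 UMIs in 2 pools) was lower than in unsorted cells at a log2 fold change of -2.004 (SE 0.64, edgeR adjusted p 0.012), and Plbd1, at 0 UMIs in 730318, was at least 2.96-fold lower with the CD41+ gate set at 3 counts (edgeR adjusted p 0.024). These were 2 of 7 members lower and 0 higher, where 22.5% of genes were called lower and 18.0% higher; the 5 others had unadjusted p above 0.05 in edgeR and DESeq2 alike. Ckb was at 6.85 CPM over the CD41+ pools and 2.73 CPM over the unsorted ones, a difference that did not pass the test (edgeR adjusted p 0.21). Cst3 had 723 and 847 CPM, a log2 fold change of 0.026 (SE 0.17) to unsorted cells. Within the sequencing batch that held both groups Id2 was at -2.03 with an adjusted p of 0.060, and without CD41+ pool 2 it was at -1.45 with an adjusted p of 0.20; Plbd1 did not pass without pool 1 or without pool 2, with adjusted p of 0.15 and 0.16 by edgeR.

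**Figure D2:**
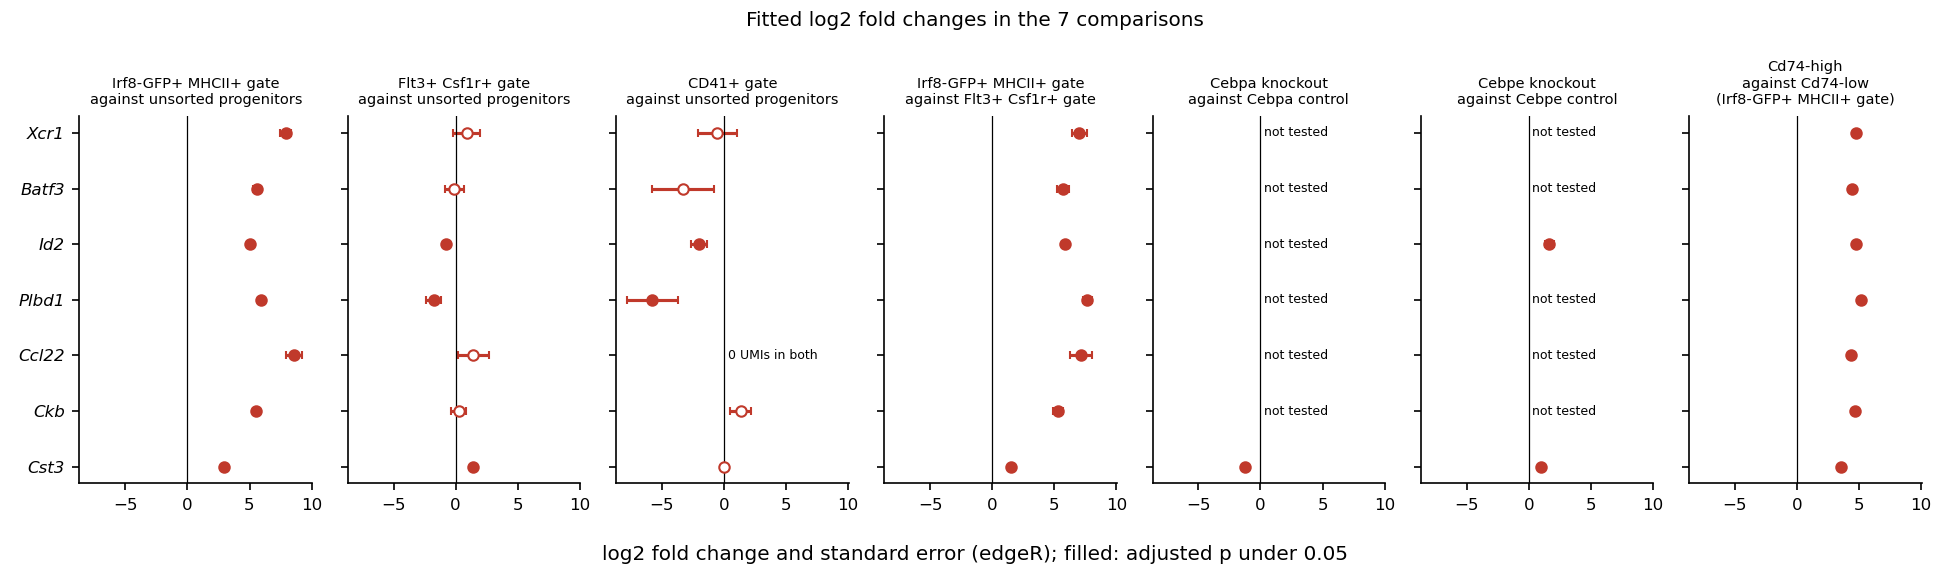
Fitted log2 fold change (x axis) and standard error of each gene (y axis) in the 7 comparisons, from edgeR; filled points have an adjusted p under 0.05, and a gene that did not pass the filter on low counts is marked as not tested. All 7 genes lie right of 0 against unsorted progenitors, against the Flt3+ Csf1r+ gate and in Cd74-high cells; values of Ccl22 against unsorted cells and of Plbd1 in the CD41+ gate depend on the prior count because the group with the lower level had 0 UMIs.

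Loss of Cebpa, a factor needed for granulocyte and monocyte progenitors, went with less Cst3. Cst3 averaged 455 ± 70.3 CPM in the 12 knockout pools and 1064 ± 181 CPM in the 6 control pools (SD), with no overlap, a log2 fold change of -1.28 (SE 0.12, edgeR adjusted p 1.4e-08). It was the only member that passed the count filter, 1 of 7, and was called lower as were 8.58% of the 5977 tested genes, with 9.59% higher. Within sequencing batch SB23 Cst3 was at 391 to 510 CPM in 4 knockout pools against 903 and 945 CPM in 2 control pools, and in SB29 at 313 to 540 CPM in 8 against 1021 to 1412 CPM in 4.

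Plbd1 had 7 UMIs in Cebpa knockout cells and 50 in control cells, a ratio of 0.096 with a counting interval of 0.037 to 0.21. Of the 12 knockout pools 3 had any Plbd1, at 2.51 to 6.76 CPM, and the control pools had 24.1, 2.07, 34.7, 16.5, 3.38 and 9.89 CPM, so the ranges overlap. Without the filter on low counts Plbd1 was called lower at -3.14 on the log2 scale (SE 0.62, edgeR adjusted p 0.00034). Id2 had 69 against 64 UMIs, a ratio of 0.736 with an interval of 0.516 to 1.05, and Batf3 and Ckb had 4 against 6 and 14 against 20 UMIs; Xcr1 and Ccl22 had none in either group. MHC class II genes were lower too, 5 of 5 tested, with Cd74 at -2.17 and H2-Ab1 at -1.29, and so were the granule genes of neutrophils, 4 of 4 with a median of -5.37, and Irf8 at -3.87. The granule list summed to 88.0 to 1212 CPM in knockout pools against 10170 to 18741 CPM in control pools, the monocyte and macrophage list to 37.4 to 277 against 277 to 852 CPM, and the erythroid list to 13685 to 16628 against 7115 to 13323 CPM; their part in the Cst3 and Plbd1 differences was not tested. Kept cells were 60.7% of single-cell wells in the knockout and 78.1% in the control.

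In Cebpe knockout cells, which lack a factor of late granulocyte maturation, Id2 and Cst3 were higher. Id2 had 74.96, 87.9, 46.5 and 54.1 CPM in the 4 knockout pools, against 15.1 and 29.1 CPM in the 2 control pools, a log2 fold change of 1.66 (SE 0.37, edgeR adjusted p 0.0012). Cst3 had 1692, 1669, 1523 and 1528 CPM in knockout pools and 906 and 889 CPM in control pools, at 0.96 (SE 0.13, edgeR adjusted p 1.6e-06). These were the 2 members tested, where 13.5% of 7369 genes were higher and 9.85% lower, and the groups do not overlap for either gene. Plbd1 went the other way in its counts, with 7 UMIs in knockout against 14 in control cells, a ratio of 0.275 (interval 0.094 to 0.728), and without the count filter it was at -1.70 with an edgeR adjusted p of 0.18.

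Monocyte and granule genes moved with Id2 and Cst3 in this comparison. The monocyte and macrophage list summed to 3080 to 4125 CPM in Cebpe knockout pools against 1171 and 1485 CPM in control pools, the neutrophil granule list to 47707 to 52856 against 13942 and 15410 CPM, and the erythroid list to 2786 to 4083 against 9880 and 11720 CPM; their part in the Id2 and Cst3 differences was not tested. All pools of both Cebpe groups carry a GEO label of another group. Grouped by the GEO label, Id2 was at -1.69 and Cst3 at -1.18, both called lower.

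The Irf8-GFP+ MHCII+ gate was then described cell by cell against Cd74, since the gate was not uniform. Cells were ranked within each pool by the Cd74 share of their UMIs and cut into 3 parts of nearly equal size, and CPM were computed with Cd74 left out of the total. Cd74-low cells (375) had a median of 1 Cd74 UMI and 3690 UMIs in all, Cd74-middle cells (372) 4 and 3243.5, and Cd74-high cells (369) 43 and 1921. The cells with the most Cd74 thus held the fewest UMIs. Of the 1116 cells, 410 had at least 10 Cd74 UMIs and 106 had none.

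Each member was higher in Cd74-high than in Cd74-low cells in 6 of 6 pools. Id2 averaged 3037 ± 130.4 CPM in Cd74-high cells and 132 ± 48.1 CPM in Cd74-low cells (SD, n = 6 pools). Plbd1 averaged 2926 ± 327 and 96.2 ± 34.7 CPM, Ckb 485 ± 111 and 21.1 ± 6.34 CPM, and Batf3 391 ± 110 and 19.7 ± 3.19 CPM in the same order of Cd74-high and Cd74-low cells. Xcr1 averaged 313 ± 174 CPM in Cd74-high and 12.7 ± 11.0 CPM in Cd74-low cells, and Ccl22 282 ± 190 and 15.5 ± 14.1 CPM. Ccl22 was seen in only 28 Cd74-high and 22 Cd74-low cells. In pool 1 its Cd74-high level came from 1 cell with 34 UMIs, so its difference rests on few cells with high counts. Cst3 averaged 20263 ± 2721 CPM in Cd74-high and 2001 ± 310 CPM in Cd74-low cells.

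For each member the exact two-sided sign-flip permutation test over the 6 pools gave p = 0.03125 (higher in 6 of 6 pools), the smallest that 6 pools allow. In edgeR with pool as a block 7 of 7 were called higher in Cd74-high cells, where 22.3% of 5291 genes were called higher and 22.1% lower, with log2 fold changes of 5.15 (SE 0.11) for Plbd1, 4.77 (SE 0.27) for Xcr1, 4.72 (SE 0.10) for Id2, 4.69 (SE 0.22) for Ckb, 4.46 (SE 0.24) for Batf3, 4.36 (SE 0.28) for Ccl22 and 3.56 (SE 0.060) for Cst3. Xcr1, Ccl22, Batf3 and Ckb could pass the count filter here only through Cd74-high cells. The 6 pools carry 1 mouse identifier. In the same fit Irf8 was higher by 1.95 and Flt3 by 0.74.

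**Figure D3:**
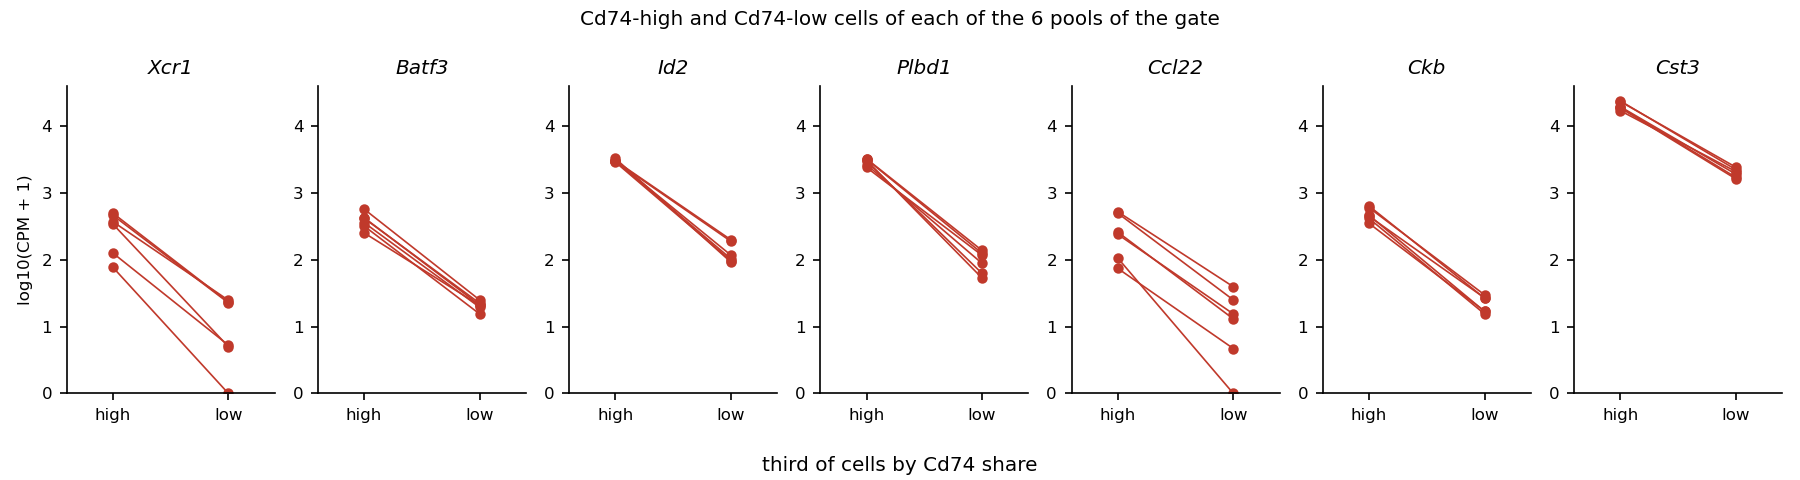
Level of each gene (log10 of CPM + 1, y axis) in Cd74-high and Cd74-low cells of the Irf8-GFP+ MHCII+ gate (x axis); each line joins both values of 1 of the 6 pools. All 42 lines fall to the right, and the lines of Xcr1 and Ccl22 are spread more widely than those of Id2 and Cst3.

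With each cell thinned to 1000 UMIs, which left out 38 Cd74-high and 4 Cd74-low cells, Id2 was seen in 90.9% of Cd74-high cells and 13.2% of Cd74-low cells, Plbd1 in 82.8% and 10.5%, Ckb in 30.8% and 1.35%, Batf3 in 29.3% and 2.43%, Xcr1 in 18.7% and 1.89%, and Ccl22 in 6.04% and 1.62%. Without thinning the Id2 shares were 95.1% and 32.0%, the Plbd1 shares 88.9% and 28.8% and the Xcr1 shares 27.4% and 5.33%. For Ccl22 the unthinned shares lay closer, at 7.59% of Cd74-high and 5.87% of Cd74-low cells. In absolute counts a Cd74-high cell held 6.05 Id2 UMIs on average and a Cd74-low cell 0.533, and for Cst3 39.8 and 7.86, although Cd74-high cells held fewer UMIs in total. In Cd74-low cells Xcr1, Batf3 and Ccl22 never passed 1 UMI in a cell. The 12 wells of the gate without a cell had 0 UMIs of these genes, but held only 730 UMIs in all. Whether the single UMIs came from the cell itself was not tested.

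The members did not come up at the same Cd74 level. When cells were cut into 10 bins per pool by Cd74 share, every member was low in bins 1 to 6, with Id2 between 90.7 and 165 CPM and Plbd1 between 78.0 and 107 CPM on average, at median Cd74 shares of 0.0046% to 0.154% of UMIs. Id2 averaged 153 ± 57.6 CPM in bin 6, 1989 ± 900 CPM in bin 7, 3216 ± 275 CPM in bin 8 and 2937 ± 457 CPM in bin 10 (SD, n = 6 pools). Batf3 and Ckb had the same form, with 36.5 ± 20.0 and 35.7 ± 16.6 CPM in bin 6, 411 ± 106 and 539 ± 147 CPM in bin 8, and 458 ± 203 and 383 ± 137 CPM in bin 10. For these 3 genes the CPM of bins 8 to 10 did not differ beyond the spread of the pools. Their summed UMIs fell, for Id2 from 811 in 113 cells of bin 8 to 520 in 108 cells of bin 10. In the same bins Batf3 went from 101 to 79 UMIs and Ckb from 130 to 70.

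In CPM Plbd1 and Cst3 kept climbing. Plbd1 averaged 93.1 ± 31.1 CPM in bin 6, 2244 ± 427 CPM in bin 8 and 3764 ± 531 CPM in bin 10, and Cst3 2274 ± 105, 15073 ± 1331 and 28892 ± 5466 CPM in the same bins. Xcr1 averaged 9.97 ± 16.5 CPM in bin 7, where Id2 was already high, 47.6 ± 55.4 CPM in bin 8, 386 ± 271 CPM in bin 9 and 749 ± 519 CPM in bin 10. Bins 9 and 10 held 87 and 142 of the 286 Xcr1 UMIs. Ccl22 was spread between pools in the upper bins, with 733 ± 544 CPM in bin 10 and 178 ± 416 CPM in bin 7, where 1 pool had 1027 CPM. In summed UMIs Plbd1 had 716 in 112 cells of bin 9 and 685 in 108 cells of bin 10, and Cst3 had 4623 and 5089. The Cd74 share and the CPM are both divided by the UMIs of the cells, so depth enters both the bins and the levels. The bins rank different cells and are not times.

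**Figure D4:**
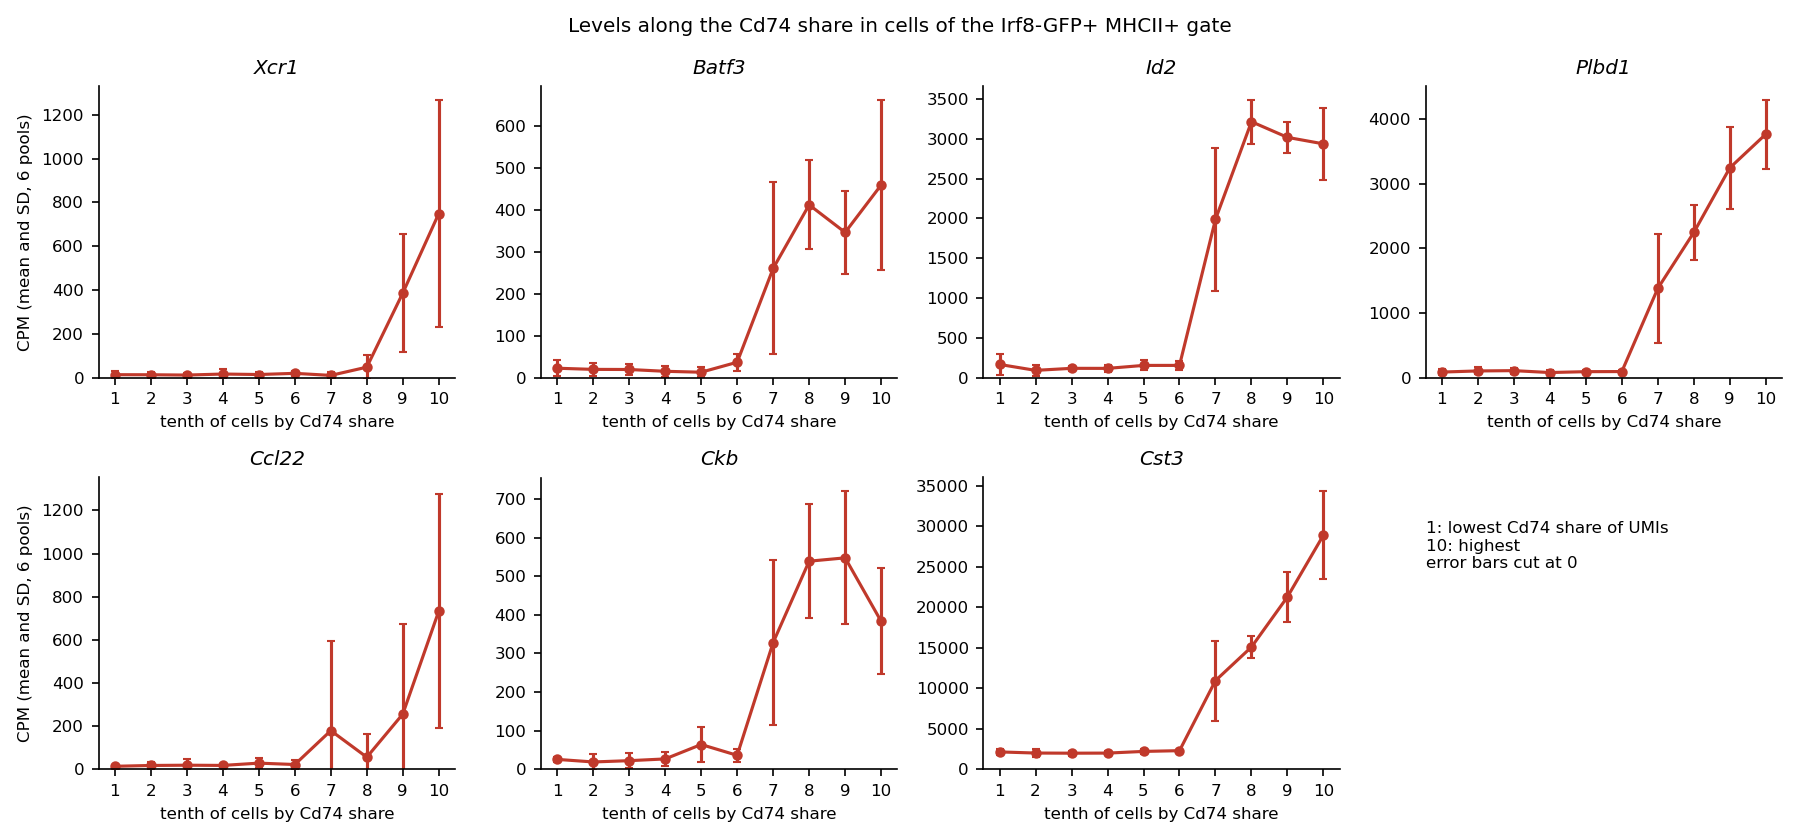
Mean level of each gene (CPM, y axis) over the 6 pools of the Irf8-GFP+ MHCII+ gate in 10 bins of cells from the lowest to the highest Cd74 share (x axis); error bars are SD over pools and are cut at 0. In CPM, Id2, Batf3 and Ckb reach a plateau at bin 8 and Plbd1 and Cst3 climb to bin 10. Xcr1 is near 0 up to bin 7 and at 386 and 749 CPM in bins 9 and 10.

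Within single pools, the Spearman correlation with the Cd74 share was 0.663 to 0.796 for Cst3, 0.611 to 0.697 for Id2, 0.525 to 0.693 for Plbd1, 0.361 to 0.476 for Ckb, 0.361 to 0.513 for Batf3, 0.190 to 0.431 for Xcr1 and -0.042 to 0.104 for Ccl22, over 184 to 188 cells that share a pool and differ in depth. Counts of the sparse members are mostly 0 in a cell, so for Ccl22 this weak value is no finding. The genes nearest to each member over the 1116 gate cells, by Spearman correlation of UMI shares among 3887 genes, were for Id2 the genes Actb (0.697), H2-Aa (0.691) and H2-Ab1 (0.672), and for Batf3 the members Id2 (0.412) and Cst3 (0.408). For Plbd1 they were H2-Ab1 (0.674), H2-Aa (0.666) and the member Cst3 (0.662), for Ckb Id2 (0.432) and H2-Aa (0.421), and for Cst3 Cd74 (0.741) and H2-Aa (0.733). For Xcr1 they were the lysosomal enzyme genes Naaa (0.355) and Ppt1 (0.340) and the member Plbd1 (0.337), and for Ccl22 Ccr7 (0.217) and the chemokine Cxcl16 (0.173). Over the 54 pools the nearest gene by Pearson correlation of log2(CPM + 10) was Slamf7 for Xcr1 (0.953), 4930506M07Rik for Batf3 (0.968), H2-Eb1 for Id2 (0.920) and Plbd1 (0.961), Cxcl16 for Ccl22 (0.958), Dnase1l3 for Ckb (0.940) and the joined row of H2-DMb1 and H2-DMb2 for Cst3 (0.957). In these values the 6 gate pools stand apart from the other 48.

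Cd74-high cells also carried other dendritic genes and fewer granule genes. Of the other cDC1 genes 7 of 7 tested were higher in Cd74-high cells by edgeR, with log2 fold changes between 5.24 for the integrin gene Itgae and 2.84 for Wdfy4. Of the MHC class II genes other than Cd74 6 of 6 were higher, with the class II transactivator Ciita at 5.12 and H2-DMa at 2.00. Of the mature dendritic genes 5 of 5 were higher, with the costimulatory receptor Cd40 at 5.79 and Cd83 at 3.35. Genes with few counts in Cd74-low cells could pass the count filter only through Cd74-high cells. Of 3 tested cDC2 genes Rbpj was higher at 1.75 and Sirpa lower at -0.90, and of 4 tested plasmacytoid genes Irf7 was higher at 4.25 and Tcf4, the factor of plasmacytoid cells, lower at -0.997.

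Neutrophil granule genes were lower in Cd74-high cells, 4 of 4, from Mpo at -1.72 to Elane at -3.14, and summed to 1668 to 3624 CPM in Cd74-high cells against 9922 to 15326 CPM in Cd74-low cells. Of 9 tested monocyte and macrophage genes 3 were higher, among them Klf4 at 4.13, and 3 lower, among them Ly6c2 at -2.40; the list summed to 892 to 1691 and 664 to 1043 CPM. Of 2 tested erythroid genes Hba-a2 was higher at 5.50 and Car2 lower at -1.58, and the list summed to 44.8 to 1128 CPM in Cd74-high and 106 to 225 CPM in Cd74-low cells. The part of these genes in the members' differences was not tested.

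Of the 369 Cd74-high cells, 95 had Xcr1 without Ccl22, 22 had Ccl22 without Xcr1, 6 had both and 246 had neither. An Xcr1 UMI was seen in 21.4% of the 28 cells with Ccl22 and in 27.9% of the cells without it, a difference that was not tested. Of these 28 cells 11 had a single Ccl22 UMI, as had all 22 Cd74-low cells with Ccl22. Of the 101 Cd74-high cells with Xcr1 47 had a single Xcr1 UMI. Many cells were thus placed in a set by 1 UMI. Ccl22 was concentrated in few cells: in the whole gate 16 of the 75 cells with a Ccl22 UMI had 3 or more, and they held 213 of the 278 UMIs. The highest single cell had 37 Ccl22 UMIs. For Xcr1, 34 cells had 3 or more UMIs, all of them Cd74-high, and the highest had 10.

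The cell sets were defined by the members and are described without a test, with CPM over all UMIs. Cells with Xcr1 and no Ccl22 had 4024 CPM of Plbd1, and cells with Ccl22 and no Xcr1 had 1893 CPM; cells with neither had 2442 CPM. Of the other cDC1 genes, Naaa was at 2670 CPM in Xcr1 cells, 700.0 in Ccl22 cells and 1074 in cells with neither, Cadm1 at 358, 130 and 52.9 CPM, and Tlr11 at 253, 51.9 and 36.6 CPM. In Ccl22 cells the Cadm1 level came from 5 UMIs and that of Tlr11 from 2. Of the mature genes, Ccr7 was at 9.53 CPM in Xcr1 cells, from 2 UMIs, and at 2463 CPM in Ccl22 cells, from 95 UMIs, with 138 CPM in cells with neither. Fscn1 was at 23.8, 1011 and 93.6 CPM, but the costimulatory ligand gene Cd86 at 105, 51.9 and 14.2 CPM. The Cd86 level of Ccl22 cells came from 2 UMIs. Relb, a subunit of the alternative NF-kappaB pathway and one of the pan-conventional list, was at 42.9, 648 and 99.7 CPM.

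The other members separated the sets less. Id2 was at 2932 CPM in Xcr1 cells, 2307 in Ccl22 cells and 3038 in cells with neither, Batf3 at 381, 570.4 and 354 CPM, Ckb at 467, 337 and 465.99 CPM and Cst3 at 23378, 30205 and 16969 CPM. The sets came unevenly from the pools: 10 of the 95 Xcr1 cells but 15 of the 22 Ccl22 cells were in pools 3 and 4, so pool and set are partly the same contrast, and 85 of the Xcr1 cells came from the other 4 pools. Median depth was 2143 UMIs in Xcr1 cells, 1691 in Ccl22 cells and 1840.5 in cells with neither, and a cell with no UMI of a gene may still express it.

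**Figure D5:**
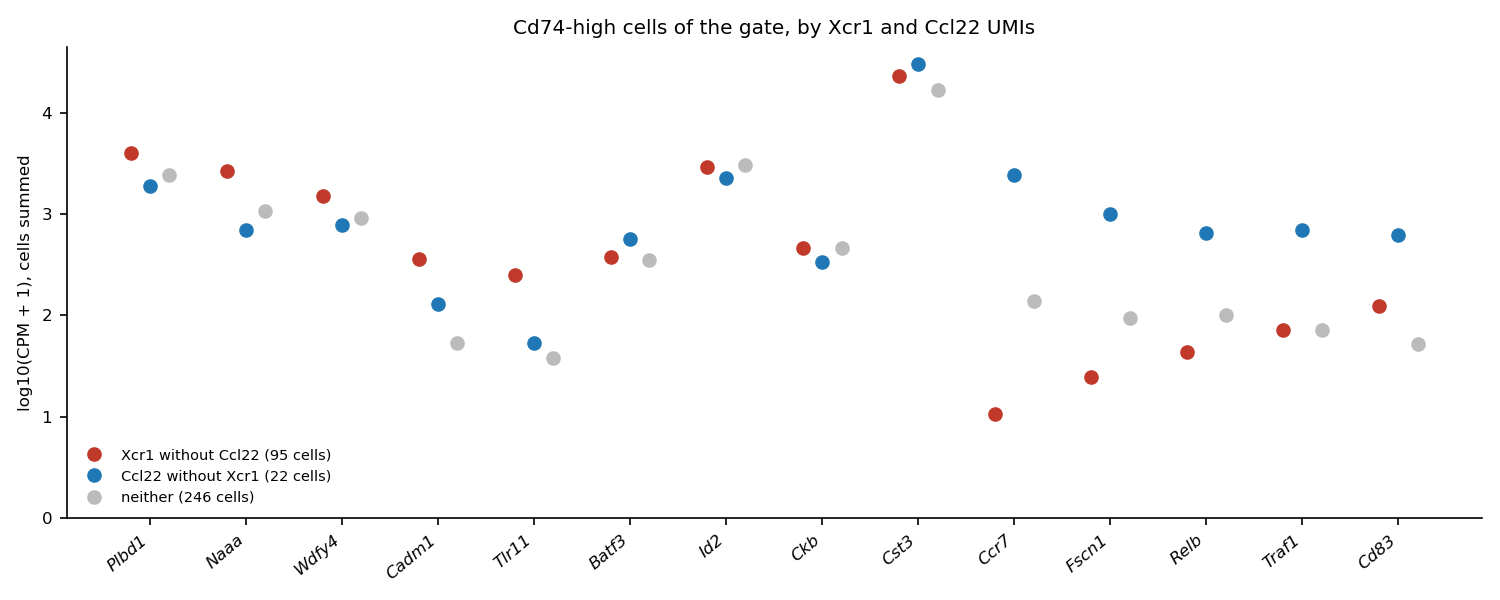
Summed level (log10 of CPM + 1, y axis) of 14 genes (x axis) in Cd74-high cells of the gate with Xcr1 and no Ccl22, with Ccl22 and no Xcr1, or with neither. Plbd1, Naaa, Wdfy4, Cadm1 and Tlr11 are higher in the 95 Xcr1 cells. Ccr7, Fscn1, Relb, Traf1 and Cd83 are higher in the 22 Ccl22 cells, whereas Id2, Ckb and Batf3 lie closer together. Tlr11 and Cadm1 in Ccl22 cells rest on 2 and 5 UMIs. There are no error bars because the sets are sums over cells.

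Cells rich in MHC class II RNA were also found outside the gate. By a rule of at least 1% of UMIs from MHC class II genes, and under 1% from the erythroid and from the granule list, 413 of the gate cells (37.0%) and 23 of the unsorted cells (0.842%, in 15 of 16 pools) were MHC class II-rich; the rule was extended from unsorted cells to the other groups after values had been seen. Id2 was at 2920 CPM (counting interval 2807 to 3036) in these gate cells and at 2581 CPM (2085 to 3158) in the unsorted ones, Plbd1 at 2698 and 2663 CPM, Batf3 at 373 and 412 CPM, Ckb at 466.4 and 302 CPM and Cst3 at 18837 and 18614 CPM. The counting intervals of these 5 members overlap between both sets. Those of Irf8 did not overlap. Irf8 was at 1573 CPM (1490 to 1659) in the gate cells and at 3542 CPM (2957 to 4208) in the unsorted ones. Cd74 was at 20306 CPM (20005 to 20610) in the gate cells and at 16198 CPM (14917 to 17560) in the unsorted ones. It is one of the genes that picked the cells, so no result is read from its levels.

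For Xcr1 and Ccl22 few unsorted cells or UMIs stand behind the levels. Xcr1 was at 287 CPM in MHC class II-rich gate cells (252 to 325) and at 27.5 CPM in unsorted ones, from 1 UMI (0.695 to 153), and Ccl22 at 268 CPM (235 to 305) and 0 UMIs, where 3 counts would be 82.4 CPM. Over cells, Xcr1 was seen in 24.7% of the gate cells (exact binomial interval 20.6 to 29.2) and 4.35% of the unsorted ones (0.11 to 21.9), and Ccl22 in 7.26% (4.95 to 10.2) and 0 of 23 (0 to 14.8), with overlapping intervals. The mature dendritic list summed to 0.0830% of UMIs in the gate cells and 0.00549% in the unsorted ones, and the other cDC1 list to 0.338% and 0.365%. The median depth was 1929 UMIs in the gate cells and 1338 in the unsorted ones, and the intervals cover counting error only, not the spread between mice.

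These 23 cells held most of what unsorted progenitors contained of 2 members: 80.8% of the Plbd1 UMIs and 75% of the Batf3 UMIs, with 39.8% of the Id2 UMIs and 8.40% of the Cst3 UMIs. The 1048 unsorted cells rich in erythroid genes had a median depth of 4958 UMIs. In them Id2 was at 3.33 CPM, Plbd1 at 0.925, Batf3 at 0.370 and Ckb at 0.740 CPM, while Cst3 was still at 295 CPM. How much of these levels is free RNA was not tested. In the 1134 granule-rich cells Cst3 was at 1398 CPM and Id2 at 12.6 CPM. In the Cebpa arms 4 of 1384 knockout cells (0.289%) and 14 of 890 control cells (1.57%) were MHC class II-rich, and the 14 control cells held 39 of the 50 Plbd1 UMIs of their group; in the Cebpe arms 2 and 3 cells were, with 2 of 7 and 13 of 14 Plbd1 UMIs.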

How the data were processed

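The authors deposited a table of raw UMI counts per gene and well and a table describing each well; the submitters' processing notes name the mm9 build and the software bcl2fastq 2.15.0.4. An aligner is not named in the labels. Per the labels, 3' end libraries were made with MARS-seq. Index-sort intensities in the deposited well table were not used for a result. Counts were summed per pool over single-cell wells with at least 500 UMIs, and CPM were computed from these sums.

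The members, gene lists and tests were chosen with earlier results of these data known. Groups follow the description in the authors' table of wells. Pool sums were tested with edgeR 4.0.16 in R 4.3.3 (quasi-likelihood test, TMM, filterByExpr, Benjamini-Hochberg over all tested genes, adjusted p under 0.05). The sorted gates and the unsorted group were fitted together and each knockout with its control, with no covariate. Cd74-high and Cd74-low sums had pool as a block and left Cd74 out. DESeq2 1.42.0, no count filter, cells of at least 1000 UMIs, other groupings, single sequencing batches and left-out pools were alternatives. The procedure was tested on simulated data. Floors are 3 counts, intervals exact Poisson or Clopper-Pearson at 95%, covering counting error only. All 7 members were described in every comparison, with Cd74 and Irf8 as gate checks; of other lists, tested genes with the largest and smallest change were named, and any further gene of a list was chosen after its values were seen. No 2 pools of a group were copies: over 239 pairs chi-square per degree of freedom was 1.28 to 12.8. Doublets were not called. Of 27297 gene rows 2109 join several symbols.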

Additional observations from a re-analysis of the deposited data

Results flagged for a closer look

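In 7 of 45 sets of 4 to 10 pools a pool stood apart from the rest of its group by its gap to the nearest pool. The rule flags about 1 in 20 sets of normally distributed values. Many of these levels are sparse counts, so that rate does not apply and no excess is read from the number flagged. In pool 5 of the Flt3+ Csf1r+ gate Xcr1 and Ccl22 were each at 1.78 CPM, from 1 UMI, with 0 in the other 5 pools, and Id2 was at 26.6 CPM against 12.9 CPM in the nearest pool. A lone UMI among pools at 0 is always flagged by this rule. Pool 5 of the Flt3+ Csf1r+ gate carries the GEO label of the Irf8-GFP+ MHCII+ gate. In pool 6 of the Cebpa control Ckb was at 33.0 CPM, against 6.76 CPM in the nearest pool, and Cst3 at 1412 against 1068 CPM. Id2 in Cd74-high cells of gate pool 3 was at 3284 CPM against 3039 CPM in the nearest pool. Ccl22 in Cd74-middle cells of gate pool 4 was at 243 CPM against 28.1 CPM in the nearest pool; 1 cell of the Cd74-middle cells had 37 Ccl22 UMIs. Wells of the gate that received no cell, which enter no comparison, held 8 Cst3 UMIs, above the limit of 3 counts.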

How the results depend on the processing

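Of 309 values of single members under the alternatives, 274 kept direction and side of the threshold. The grouping mattered most. By the GEO label, Batf3, Id2 and Plbd1 were at 3.92, 3.55 and 4.42 on the log2 scale in the Flt3+ Csf1r+ gate against unsorted cells, Xcr1 was at -0.036 between the gates, and Id2 and Cst3 were at -1.69 and -1.18 in the Cebpe knockout. Members called were then 7 for the Flt3+ Csf1r+ gate, 0 for the CD41+ gate, 0 between the gates and 0 for Cebpa, and 6 members were highest in the Irf8-GFP+ MHCII+ gate; all genes called were 2595 for the Flt3+ Csf1r+ gate against unsorted cells, 88 between the gates and 68 for Cebpa, against 4651, 3260 and 1086 by the description. With label and description the same, 1789 genes were called between the gates and 463 for Cebpa, and the Cebpe arms had no pool left. Within a sequencing batch, 1688 genes were called between the gates, 463 for Cebpa in SB29 and 0 members for the CD41+ gate. With cells of at least 1000 UMIs, 1 member was called in each of the Flt3+ Csf1r+ and CD41+ gates. Without the count filter 2 members were called for Cebpa. Member counts in this paragraph that lack a share of all genes are not read against a background. For the Cd74 comparison 2349 genes were called, 941 with thinned cells and 1523 with no pool block, with 7 of 7 members each time. Leaving out pools gave 0 to 1 members and 1932 to 2180 genes for the CD41+ gate (3532 with all) and 908 to 1652 genes for Cebpe (1721 with all; 908 without control pool 2). No paired analysis was possible because the pool numbers are accession order only, apart from the Cd74 comparison, which is blocked by pool. Depth limits Xcr1 and Ccl22 outside the gate to bounds.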
